A study of Mus musculus with 19 samples.

Results

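Inflamed bone marrow gave 4 libraries labelled CCR1, and these were set against 4 libraries of CCR2+ve cells from inflamed bone marrow, 8 of the 19 libraries analysed. All came from female REP mice aged 8 to 12 weeks, which carry fluorescent reporters for inflammatory chemokine receptors, CCR1 and CCR2 among them, and all 8 are labelled as bone monocytes. The inflamed mice had received a mixture of IL-3, IL-6, GM-CSF and IFN-α from implanted osmotic pumps, in both groups alike. The other groups were inflamed CCR1/2+ve monocytes (3 libraries) and resting CCR1/2+ve and CCR2+ve monocytes (4 libraries each). The sources used here describe a sort of CCR1/2+ve and of CCR2+ve monocytes only, so how the cells labelled CCR1 were gated, and whether each library came from a separate mouse, is not given, and p-values measure the spread between these libraries.

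CCR1 and CCR2 are receptors for inflammatory CC chemokines. CCR2 brings classical Ly6C-high monocytes out of the bone marrow, whereas CCR1 is found on several myeloid cells, among them monocytes, neutrophils, eosinophils and basophils. Monocytes depend on the growth factor receptor encoded by Csf1r and on the transcription factors encoded by Irf8 and Klf4. Neutrophils arise from progenitors that first make the proteases and myeloperoxidase of the early, azurophil granules while they still divide, then the proteins of the secondary and tertiary granules, and then, as they mature, genes such as Cxcr2 and Retnlg.

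The 8 libraries were close in depth, with 22566184 to 23706580 counted reads in those labelled CCR1 and 22502998 to 24293969 in the CCR2 libraries. Levels are CPM, read counts scaled to a common library size with TMM factors, and a log2 fold change is the value of the libraries labelled CCR1 minus that of the CCR2 libraries from edgeR. A gene was called at a Benjamini-Hochberg adjusted p below 0.05 and a log2 fold change of at least 1 in size. In a principal component analysis of the 8 libraries the first component held 50.9% of the variance and separated the groups. The second held 11.8% and set replicate 4 of the CCR2 libraries, at −97.3, apart from its 3 replicates at 2.97 to 52.2. In that library protein-coding genes under 1000 bases of exon stood a median of 0.555 lower on the log2 scale than the mean of its 3 replicates, taken relative to longer genes.

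The labels and the transcripts did not go together. Ccr1 (ENSMUSG00000025804, chromosome 9, 123962124 to 123968692 in GRCm38) was at 37.2, 42.8, 32.0 and 40.1 CPM in replicates 1 to 4 of the libraries labelled CCR1. The CCR2 libraries held 215, 288, 166 and 167 CPM of it, and inflamed CCR1/2+ve monocytes 310.0 ± 102 CPM (SD, n = 3). The receptor that names the first group was thus lower there, without overlap between groups (log2 fold change −2.45, standard error 0.17, edgeR adjusted p = 3.78e-09). By an exact permutation test, 2-sided, p was 0.0286, which is the least possible with 4 libraries on either side. Of Ccr2 (124101950 to 124113557 on the same chromosome, ENSMUSG00000049103) there were 4.05, 9.59, 5.27 and 4.38 CPM against 1259, 1368, 1301 and 1075 CPM (log2 fold change −7.74, standard error 0.28, adjusted p = 2.41e-10). The 4 libraries are named below as the libraries labelled CCR1, and Ccr1 mRNA does not say how much receptor or reporter protein a cell carried.

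**Figure D1:**
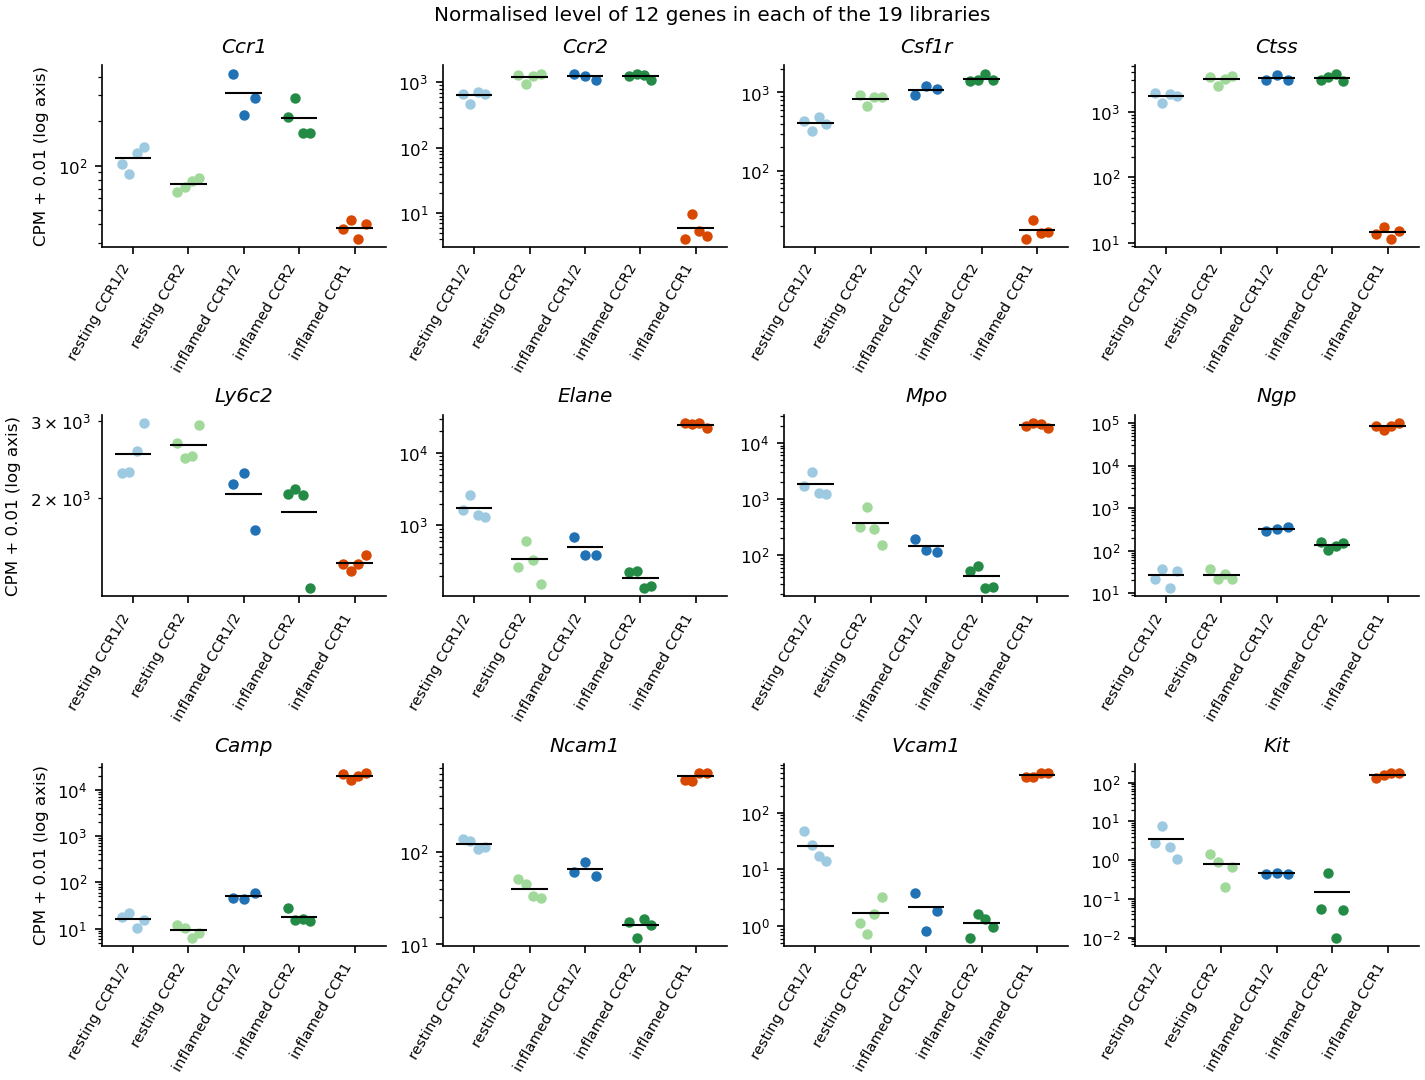
Normalised level (CPM plus 0.01, log axis with its own range in each panel) of 12 genes in each of the 19 libraries; points are libraries and bars are group means. Ccr1 is lowest in the 4 libraries labelled CCR1 (32.0 to 42.8 CPM), where Ccr2, Csf1r and Ctss are also lowest and Elane, Mpo, Ngp, Camp, Ncam1, Vcam1 and Kit are highest.

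Of 18652 genes tested, 2695 (14.4%) were higher and 3135 (16.8%) lower in the libraries labelled CCR1, and of these 2469 and 2855 had groups that did not overlap. The differences were large: 474 genes were higher by 5 or more on the log2 scale and 692 lower by as much. Among the called genes, 271 of the higher had no read in any CCR2 library and 417 of the lower had none in any library labelled CCR1. Such genes passed the filter, a mean of 1 read over all 19 libraries, only through other libraries, so these counts depend on it. The median log2 fold change over all genes tested was −0.01. Without replicate 4 of the CCR2 libraries 2643 genes were called higher and 2999 lower. With all 8 libraries and no filter beyond 1 read in them, 2931 were higher and 3047 lower, of 23838 genes.

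**Figure D2:**
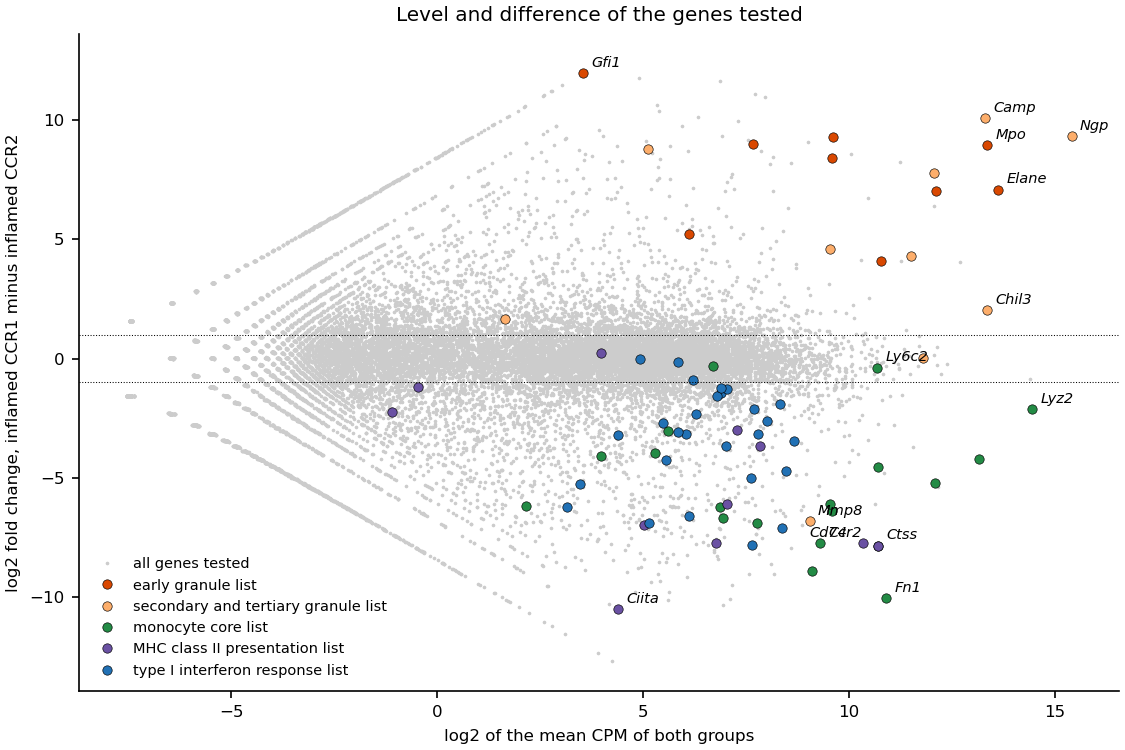
Log2 fold change against the log2 of the mean CPM of both groups; grey points are the genes tested with a read in either group, coloured points the members of 5 lists, and dotted lines the cutoffs of 1 and −1. Early granule genes lie at the top (4.10 to 11.99) and monocyte core genes below 0 (−10.06 to −0.30).

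The transcripts that filled the libraries labelled CCR1 were those of neutrophil granules. Genes of the early, secondary and tertiary granule lists took 19.03% ± 1.05 (SD, n = 4) of their counted reads, against 0.919% ± 0.181 (SD, n = 4) in the CCR2 libraries and 1.41% ± 0.332 (SD, n = 3) in inflamed CCR1/2+ve monocytes. Ngp alone, which encodes neutrophilic granule protein, took 8.05% ± 0.944 of the reads. The monocyte core list went the other way, with 1.04% ± 0.148 of the reads against 7.63% ± 0.451. In bulk samples, fewer cells of a type and less RNA per cell cannot be told apart.

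**Figure D3:**
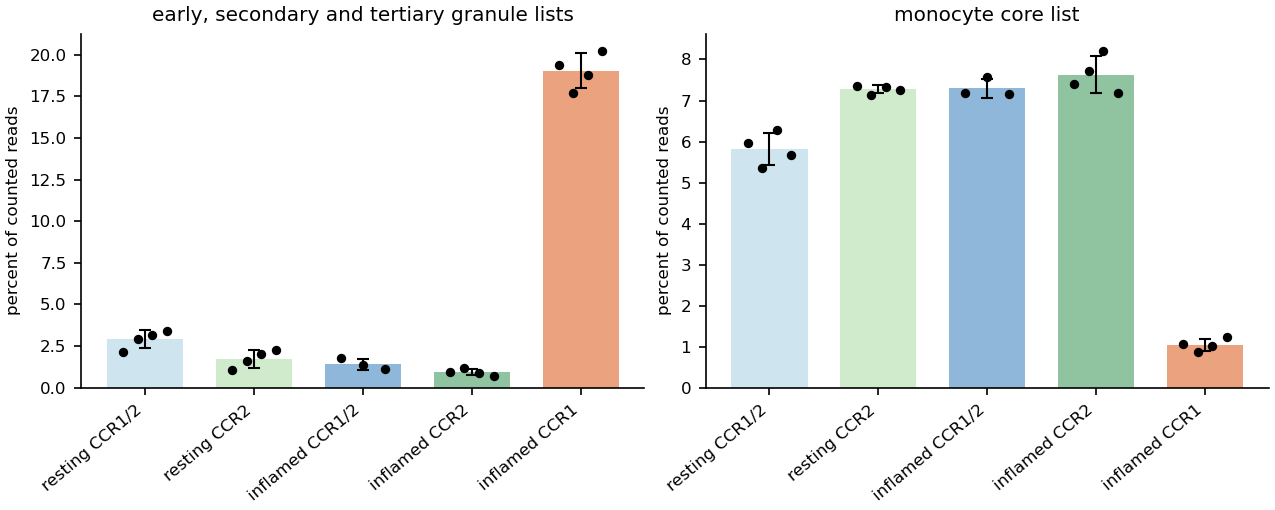
Share of counted reads (percent) on the granule lists (left) and on the monocyte core list (right) in the 5 groups; bars are means, error bars SD and points single libraries. The libraries labelled CCR1 hold 17.7% to 20.2% granule reads and 0.873% to 1.23% monocyte core reads.

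The promoters shown are those of genes on which this contrast turns: Ngp and Camp of the secondary granules, a neighbouring pair of early granule proteases and a monocyte protease that was lower. They are RefSeq windows on GRCm38.p6, 250 bases before to 50 after the start of the gene, written from 5′ to 3′ on the strand of the gene. Capitals mark GAGGAAGT (a PU.1 site), CAACGG (Myb), TTGCNNAA (C/EBP) and GAAA followed after any 2 bases by GAAA (interferon element), searched on both strands.
Ngp, chr9:110419558-110419857, plus strand: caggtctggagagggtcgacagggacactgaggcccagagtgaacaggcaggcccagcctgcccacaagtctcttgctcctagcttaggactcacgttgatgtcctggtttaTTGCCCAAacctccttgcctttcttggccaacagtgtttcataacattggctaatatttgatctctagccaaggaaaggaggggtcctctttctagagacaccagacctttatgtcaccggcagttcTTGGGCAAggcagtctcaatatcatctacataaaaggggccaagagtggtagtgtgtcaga
Camp, chr9:109849407-109849706, minus strand: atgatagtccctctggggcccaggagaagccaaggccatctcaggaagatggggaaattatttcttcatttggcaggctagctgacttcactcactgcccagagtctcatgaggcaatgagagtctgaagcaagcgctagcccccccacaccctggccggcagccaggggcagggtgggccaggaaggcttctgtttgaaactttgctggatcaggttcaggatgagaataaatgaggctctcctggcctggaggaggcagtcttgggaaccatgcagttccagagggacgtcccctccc
Elane, chr10:79886062-79886361, plus strand: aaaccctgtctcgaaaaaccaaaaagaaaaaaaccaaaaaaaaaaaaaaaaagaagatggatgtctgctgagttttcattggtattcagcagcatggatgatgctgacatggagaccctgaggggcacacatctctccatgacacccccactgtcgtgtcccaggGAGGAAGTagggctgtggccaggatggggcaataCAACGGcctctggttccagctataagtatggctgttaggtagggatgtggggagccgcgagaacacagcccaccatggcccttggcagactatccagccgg
Prtn3, chr10:79879417-79879716, plus strand: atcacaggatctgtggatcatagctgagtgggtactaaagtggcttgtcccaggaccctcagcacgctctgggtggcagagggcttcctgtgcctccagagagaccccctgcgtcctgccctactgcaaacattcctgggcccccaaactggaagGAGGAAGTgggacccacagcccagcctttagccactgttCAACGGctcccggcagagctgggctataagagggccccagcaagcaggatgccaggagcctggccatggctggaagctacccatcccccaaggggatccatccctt
Ctss, chr3:95526536-95526835, plus strand: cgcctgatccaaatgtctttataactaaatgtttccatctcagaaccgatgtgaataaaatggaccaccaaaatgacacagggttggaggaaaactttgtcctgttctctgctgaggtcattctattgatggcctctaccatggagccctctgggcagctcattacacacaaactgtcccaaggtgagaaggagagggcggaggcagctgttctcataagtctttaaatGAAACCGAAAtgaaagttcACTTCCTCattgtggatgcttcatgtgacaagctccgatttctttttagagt

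Elane and Prtn3 each held GAGGAAGT followed by CAACGG, Ngp held TTGCNNAA on either strand, Ctss held the interferon element and GAGGAAGT, and none of these letters were in the window of Camp. Among 32851 windows of all genes 3.2% held GAGGAAGT, 5.12% CAACGG, 10.8% TTGCNNAA and 3.44% the interferon element. Of the 10 windows of the early granule list 3 held GAGGAAGT (Elane, Mpo and Prtn3), 3 TTGCNNAA (Fcnb, Gfi1 and Ms4a3) and 2 CAACGG (Elane and Prtn3). Of 8 windows of the secondary and tertiary granule list 4 held TTGCNNAA (Lcn2, Ltf, Mmp8 and Ngp) and 2 GAGGAAGT (Ltb4r1 and Mmp8). Of these genes Mmp8 was lower in the libraries labelled CCR1 (log2 fold change −6.83), and Ltb4r1 was not analysed here. Of the 19 windows of the monocyte core list 4 held GAGGAAGT (21.1%), so these letters were found on both sides of the contrast, and 0 held TTGCNNAA. Of the 21 windows of the type I interferon response list 11 held the interferon element. A match describes letters and not binding, and the letters were chosen with these promoters in view.

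All 9 tested genes of the early granule list were higher in the libraries labelled CCR1, against 14.4% of all genes. None of the 9 overlapped between groups, which was also so for 2469 of all 2695 genes called higher. Their median log2 fold change in this list was 8.42. Elane (chromosome 10, 79886247 to 79888215), which encodes neutrophil elastase, was at 25802, 25505, 26200.2 and 22051 CPM against 225, 234, 135 and 143 CPM. Mpo (chromosome 11, 87793581 to 87804413), which encodes myeloperoxidase, was at 19961, 22688, 22054 and 18227 CPM against 52.1, 62.7, 25.8 and 27.1 CPM. Neither gene overlapped between the groups, and the log2 fold changes of Elane and Mpo were 7.09 (standard error 0.21, adjusted p = 4.39e-13) and 8.96 (standard error 0.37, adjusted p = 1.74e-08). Prtn3, the gene of proteinase 3 that lies beside Elane, had the smallest log2 fold change of the list, 4.10, with 3327 ± 462 CPM against 196 ± 79.9 CPM (SD, n = 4).

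The list also held genes that mark the granulocyte-monocyte progenitor as it commits. Ms4a3 was at 1539 ± 72.9 CPM against 4.53 ± 2.66 CPM (SD, n = 4), and Nkg7, the gene with the smallest p of all, at 1562 ± 152 CPM against 2.49 ± 0.115 CPM. Gfi1, the gene of a transcription repressor required for neutrophils, was at 25.9, 21.0, 25.7 and 19.8 CPM and had no read in any CCR2 library, so it was at least 679-fold higher, taking 3 reads over the group as the floor. Fcnb, which encodes a ficolin, was at 8781 ± 1489.9 CPM against 68.2 ± 9.72 CPM. Prss57 was at 405 ± 16.0 CPM against 0.791 ± 0.323 CPM, with 40.7% of its exons overlapping Fstl3, and reads that fall in such an overlap are not assigned to 1 gene without doubt. Ctsg, the remaining gene of the list, was not analysed here.

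Of the 10 tested genes of the secondary and tertiary granule list 8 were higher, against 14.4% of all genes, and 1 was lower. The median log2 fold change was 4.43. Ngp (chromosome 9, 110419747 to 110423012) was at 86124, 69729.6, 87509.9 and 100780.0 CPM against 157, 101, 128 and 149 CPM (log2 fold change 9.33, standard error 0.20, adjusted p = 2.13e-15). Scaled to exon length as well as depth (RPKM), Ngp was the most abundant transcript of the libraries labelled CCR1, at 70406 RPKM, followed by Camp at 26339.8 and Elane at 25294 RPKM. Camp, which encodes the antimicrobial peptide cathelicidin, was at 21649, 15748, 19155 and 23310.3 CPM against 27.3, 15.2, 16.1 and 14.5 CPM (log2 fold change 10.10).

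Ltf (lactoferrin) was at 8523 ± 2237 CPM against 39.1 ± 6.32 CPM, Lcn2 (lipocalin 2) at 1418 ± 237 against 59.7 ± 26.8 CPM, and Cd177 at 5509.9 ± 778 against 282 ± 75.7 CPM (SD, n = 4). Orm1, an acute phase protein gene, was at 68.8 ± 7.82 CPM against 0.150 ± 0.139 CPM. The list did not move as a block. Chil3, a chitinase-like protein gene that monocytes also transcribe, was at 15436, 16332, 16497 and 18512 CPM against 4284, 6329.7, 4345 and 1641 CPM (log2 fold change 2.02, adjusted p = 0.00171). Hp (haptoglobin) was at 3575 ± 166 CPM against 3495 ± 168 CPM (adjusted p = 0.769). Mmp8, neutrophil collagenase, was lower in the libraries labelled CCR1, at 6.87, 12.2, 5.18 and 12.2 CPM against 1121, 1132, 934 and 991 CPM (log2 fold change −6.83, adjusted p = 2.43e-09).

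Of the 20 genes of the mature neutrophil list 15 were higher (75%, against 14.4% of all genes) and 2 lower (10%, against 16.8%). Their median log2 fold change was 2.88. S100a8 was at 11316, 6868, 5524 and 9878 CPM against 139.5, 159, 62.8 and 36.1 CPM, and S100a9 at 4778 ± 972 CPM against 16.1 ± 7.18 CPM; together they encode calprotectin. Ly6g, the gene of the antigen by which neutrophils are usually gated, was at 15.1, 12.0, 13.1 and 17.5 CPM against 0.576, 0.279, 0.484 and 0.344 CPM (log2 fold change 5.09, adjusted p = 5.22e-11). Itgb2l was at 1016 ± 145 CPM against 1.89 ± 0.616 CPM. Genes that come late in neutrophil maturation were higher but at low levels: Retnlg at 22.8 ± 2.09 CPM against 3.63 ± 0.738 CPM and Mmp9 at 4.72 ± 0.961 CPM against 1.499 ± 0.417 CPM. Il1b (0.472 ± 0.251 against 1.77 ± 0.689 CPM) and Fpr1 (0.519 ± 0.257 against 4.84 ± 1.76 CPM) were lower, and the gene of the G-CSF receptor, Csf3r, did not pass the fold cutoff at 565 ± 36.1 against 470.2 ± 33.8 CPM.

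**Figure D4:**
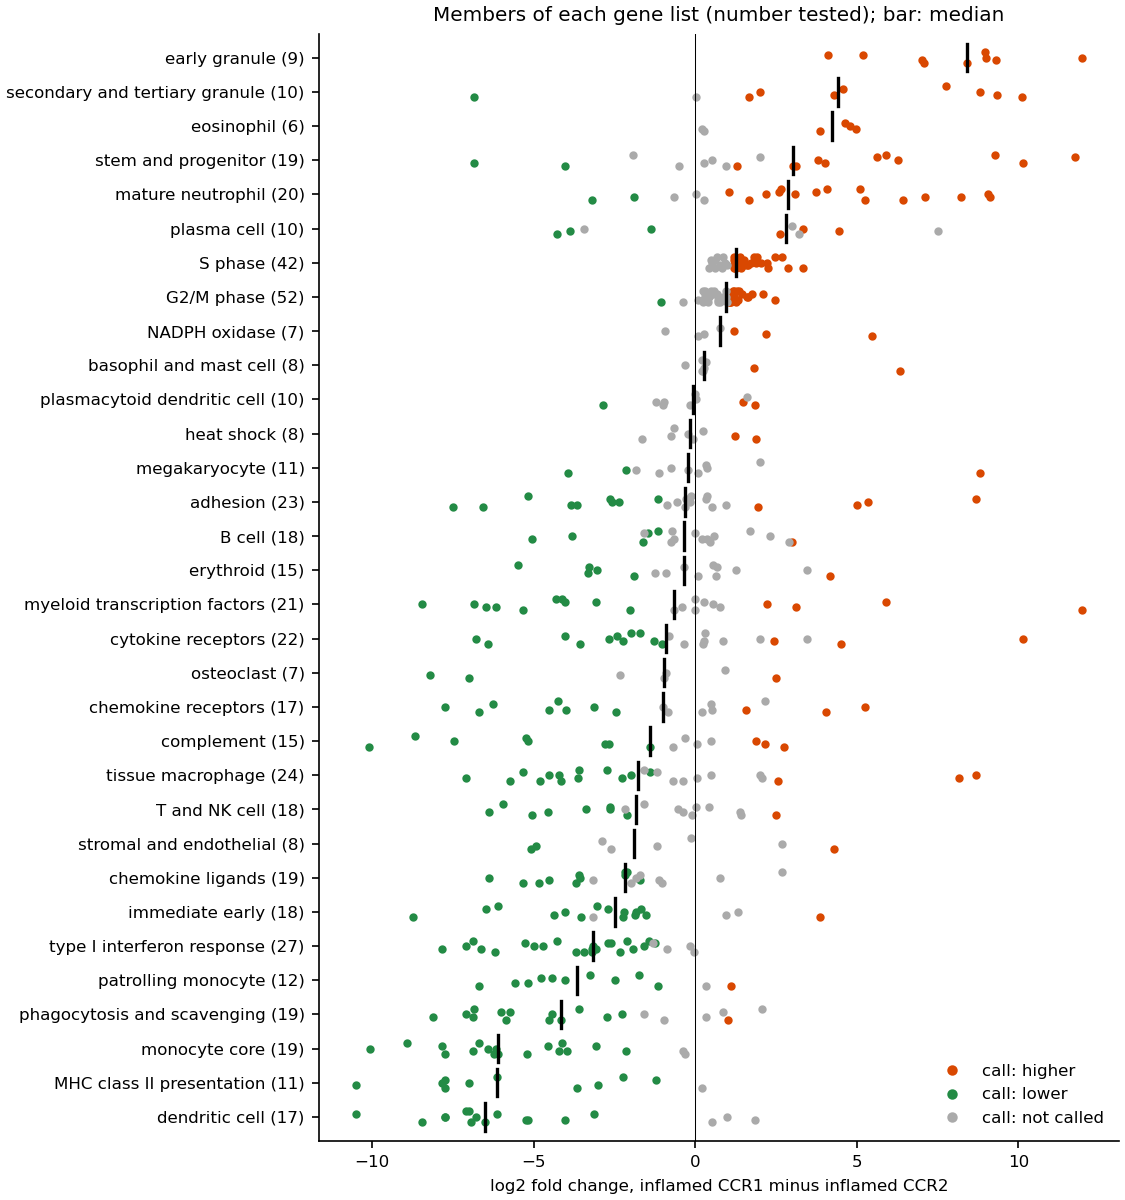
Log2 fold change of each tested member of the 32 gene lists, ordered by the list's median (black bar); orange points were called higher, green lower and grey not called, and the number tested stands beside each name. Early granule genes have the highest median (8.42) and the dendritic cell list the lowest (−6.49).

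Genes of stem and progenitor cells divided. Of the 19 tested 11 were higher, against 14.4% of all genes, and 2 lower, against 16.8% (median log2 fold change 3.01). Kit, the receptor for stem cell factor, was at 132, 155, 182 and 172 CPM against 0.0443, 0.465, 0 and 0.0430 CPM (log2 fold change 10.14, adjusted p = 1.57e-10). Erg, a transcription factor of stem and progenitor cells, was at 53.3, 55.2, 65.8 and 63.0 CPM with 1 read in the CCR2 libraries, a ratio of 5213 (95% counting interval 935 to 205931). Hlf was at 17.6 ± 3.10 CPM against 0.0221 ± 0.0443 CPM, Myb at 91.3 ± 5.28 against 1.54 ± 0.450 CPM and Cdk6 at 421 ± 23.3 against 25.8 ± 4.08 CPM. Flt3 (0.152 ± 0.213 against 2.51 ± 1.00 CPM) and Meis1 (0.0910 ± 0.0976 against 11.3 ± 0.954 CPM) were lower. Cd34, which marks early progenitors, was low in both groups, at 1.96 ± 0.469 and 1.01 ± 0.526 CPM, and was not called (adjusted p = 0.0678); it passed both cutoffs without replicate 3 of the CCR2 libraries (log2 fold change 1.19, adjusted p = 0.0359) and with the replicate number as a block (1.03, adjusted p = 0.0465).

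Genes of the cell cycle were higher as well. Of 42 S phase genes 31 were higher, against 14.4% of all genes, and 0 lower (median log2 fold change 1.28). Of 52 G2/M genes 23 were higher, against 14.4% of all genes, and 1 lower, against 16.8% (median 0.94, under the fold cutoff). Without replicate 1 of the CCR2 libraries 31 were higher and 0 lower, and without replicate 3 of them 18 were higher and 1 lower. Rrm2, a subunit of ribonucleotide reductase, was at 1799 ± 56.8 CPM against 381 ± 89.8 CPM (log2 fold change 2.25, adjusted p = 6.31e-10), and Cdca7 at 373 ± 34.9 against 37.4 ± 8.35 CPM. Pcna and Mcm5, which serve DNA replication, had log2 fold changes of 1.23 and 1.20. Cdk1 was at 359.7 ± 24.2 CPM against 107 ± 30.5 CPM and Cdc20 at 205 ± 63.3 against 37.2 ± 13.3 CPM. Mki67, the proliferation marker, was at 768, 735, 773 and 829 CPM against 479.6, 340.2, 278 and 391 CPM (log2 fold change 1.07), which became 0.95 without replicate 3 of the CCR2 libraries. Transcripts of dividing cells were thus present in both groups, and 39 and 52 genes of the S phase and G2/M lists reached 10 CPM in the CCR2 libraries too. Myc was at 116 ± 23.4 CPM against 8.02 ± 2.05 CPM (log2 fold change 3.86).

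The monocyte identity of the label was not borne out by its defining genes. Of the 19 genes of the monocyte core list 0 were higher and 17 lower, against 16.8% of all genes. All 17 were without overlap, as were 2855 of all 3135 genes called lower. The median log2 fold change of the list was −6.11. Its summed level was 8903 to 13618 CPM in the libraries labelled CCR1 and 72591 to 89688 CPM in the CCR2 libraries. Csf1r was at 13.7, 24.1, 16.2 and 16.8 CPM against 1384, 1459.8, 1743 and 1431 CPM (log2 fold change −6.40, standard error 0.18, adjusted p = 7.72e-14). Ctss (chromosome 3, 95526786 to 95556403), which encodes the lysosomal protease cathepsin S, was at 13.3, 17.6, 11.5 and 15.1 CPM against 3081, 3380.3, 3828 and 2970.2 CPM (log2 fold change −7.84, adjusted p = 1.96e-15). Fn1 (fibronectin) was at 3.52 ± 2.24 CPM against 3797 ± 273 CPM, the largest difference of the list at −10.06.

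F13a1, coagulation factor XIII, was at 228 ± 51.5 CPM against 8465 ± 594 CPM, and Psap at 919.8 ± 72.3 against 17131 ± 1678 CPM (SD, n = 4). Ms4a4c, at 2.26 ± 1.54 CPM, and Fcgr1, at 3.59 ± 0.782 CPM, stood at 1099 ± 107 and 427 ± 67.1 CPM in the CCR2 libraries. None of the list's genes was without reads in the libraries labelled CCR1, and 10 of them reached 10 CPM there. Lyz2, lysozyme, which neutrophils share with monocytes, was the most abundant of these, at 8278 ± 1895 CPM against 36399.9 ± 4252 CPM (log2 fold change −2.13).

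Of the antigens of the study's monocyte gate, Ly6C and CD11b had genes that were not called, whereas Ly6g, given above, and Siglecf were higher in the libraries labelled CCR1. Ly6c2 was at 1415, 1366, 1418 and 1484 CPM against 2047, 2097, 2033 and 1246 CPM, and the groups overlapped through replicate 4 of the CCR2 libraries (log2 fold change −0.38, adjusted p = 0.0286, not called). Itgam, which encodes CD11b, was at 92.0, 77.6, 96.0 and 102 CPM against 121, 108, 115 and 109.8 CPM (log2 fold change −0.30, not called); 68.7% of its exons overlap Gm49368, so its level may be undercounted. Siglecf, the gene of an antigen of eosinophils, was at 25.3, 25.1, 28.5 and 26.0 CPM against 1.28, 1.07, 0.436 and 1.38 CPM (log2 fold change 4.64, adjusted p = 6.21e-11). Its groups did not overlap.

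Of 21 myeloid transcription factor genes 10 were lower, against 16.8% of all genes, and 4 higher, a share near the 14.4% of all genes. Besides Gfi1 and Myb, Id2 was higher (256 ± 33.4 against 54.6 ± 14.9 CPM). The monocyte factors Irf8 (10.5 ± 3.86 against 87.4 ± 20.6 CPM), Klf4 (1.71 ± 0.926 against 29.6 ± 5.98 CPM) and Zeb2 (19.5 ± 1.22 against 388 ± 15.6 CPM) were lower. Cebpb was at 1.67 ± 0.454 against 6.88 ± 1.07 CPM. Spi1, which encodes PU.1 and serves both lineages, was at 24.2 ± 0.683 and 38.1 ± 1.64 CPM and did not pass the cutoff (log2 fold change −0.65). Irf8 was lower in each group from inflamed mice than its 484.9 ± 30.7 CPM (SD, n = 4) in resting CCR2+ve monocytes, a value given beside and not tested here.

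Lists of neighbouring mononuclear phagocytes were mixed. Of 12 patrolling monocyte genes 10 were lower, against 16.8% of all genes (median log2 fold change −3.64). In that list 1 was higher, or 0 without replicate 4 of the CCR2 libraries. Among the lower were Treml4 (2.83 ± 0.835 against 27.1 ± 8.16 CPM) and Ace (0.0454 ± 0.0524 against 5.30 ± 3.59 CPM), while Fcgr4 was at 13.2 ± 1.21 and 10.5 ± 3.70 CPM (not called). Of 24 tissue macrophage genes 13 were lower, against 16.8% of all genes, and 3 higher, a share near the 14.4% of all genes (median −1.77). Adgre1, the gene of F4/80, was at 19.1 ± 0.927 CPM against 538 ± 65.7 CPM and Mrc1 at 2.73 ± 0.236 against 48.6 ± 16.9 CPM. Vcam1 and the iron exporter gene Slc40a1 were the exceptions with high levels: Vcam1 was at 423, 423, 509 and 503 CPM against 0.620, 1.63, 1.31 and 0.947 CPM (log2 fold change 8.70, adjusted p = 6.82e-15), and Slc40a1 at 538 ± 85.9 against 1.87 ± 1.17 CPM. Of 7 osteoclast genes 1 was higher, a share near the 14.4% of all genes, 2 were lower and 4 were not called.

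Genes of antigen presentation by MHC class II separated the groups widely. Of 11 genes of that list 10 were lower, against 16.8% of all genes, and 0 higher (median log2 fold change −6.12). Of 17 genes of the dendritic cell list, which shares 5 genes with it, 14 were lower (median −6.49). In the dendritic cell list 0 were higher, or 1 without replicate 4 of the CCR2 libraries. Cd74, the invariant chain, was at 12.6, 11.4, 6.33 and 17.2 CPM against 1149, 2562, 3979 and 2611 CPM (log2 fold change −7.75, adjusted p = 1.56e-05). H2-Ab1 was at 3.91, 3.66, 3.05 and 4.29 CPM against 105, 251, 549.8 and 135 CPM, and among the CCR2 libraries replicate 3 was highest for both genes. Ciita, the transactivator of the class II genes, was at 14.2 to 78.5 CPM in the CCR2 libraries and had 2 reads in all in those labelled CCR1, a ratio of 1787 (95% counting interval 494 to 14761). Irf4 was at 0.0589 ± 0.118 CPM against 22.3 ± 2.39 CPM and Clec10a at 0.654 ± 0.136 against 90.3 ± 12.5 CPM. H2-DMb2 was at 16.9 ± 2.17 and 14.6 ± 2.16 CPM and was not called.

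Type I interferon response genes, in mice given IFN-α, were lower in the libraries labelled CCR1 for 23 of 27, against 16.8% of all genes. All 23 were without overlap, as were 2855 of all 3135 genes called lower. In this list 0 were higher (median log2 fold change −3.16). Irf7, a transcription factor that interferon induces, was at 19.3, 28.6, 27.3 and 28.1 CPM against 499.9, 709.9, 769.6 and 736 CPM (log2 fold change −4.71, adjusted p = 1.06e-12). Ifit3 was at 1.41 ± 0.419 CPM against 52.5 to 222 CPM, Ifi204 at 1.73 ± 0.754 against 397 ± 69.3 CPM and Oasl2 at 67.3 ± 15.1 against 736 ± 185 CPM. The response genes were not silent, since 19 of the 27 reached 10 CPM in the libraries labelled CCR1. Ifit2 was at 68.6, 67.9, 79.7 and 87.0 CPM against 65.0, 125, 324 and 225 CPM; its groups overlapped and it was not called (log2 fold change −1.29, adjusted p = 0.0633), though it was without replicate 1 of the CCR2 libraries (−1.57, adjusted p = 0.00155). Ifnar1, a chain of the receptor, had a log2 fold change of −1.70.

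Of 17 chemokine receptor genes tested, 8 were lower, against 16.8% of all genes, and 3 higher, a share near the 14.4% of all genes. The number lower was 6 under the replicate block and 5 of those left by the stricter filter of filterByExpr. Cxcr2, the receptor by which mature neutrophils leave the bone marrow, was at 34.5, 27.4, 28.6 and 52.8 CPM against 1.64, 1.07, 0.339 and 0.689 CPM (log2 fold change 5.25, adjusted p = 3.09e-08). Ccrl2, an atypical receptor, was at 22.9 ± 3.75 CPM against 7.74 ± 2.89 CPM, and Ccr10 was higher at under 0.5 CPM. Cx3cr1 (2.39 ± 0.554 against 245 ± 65.4 CPM) was lower with Ccr1 and Ccr2, as were Cxcr3 (0.380 ± 0.0805 against 6.09 ± 0.9505 CPM) and Xcr1 (log2 fold change −3.13). Ccr6 and Ccr1l1 had no read in the libraries labelled CCR1 and 0.100 and 0.126 CPM in the CCR2 libraries, and both calls were lost under the replicate block (adjusted p = 0.0917 and 0.0517). The call of Ccr6 was also lost (adjusted p = 0.0600 to 0.148) without any 1 of the libraries labelled CCR1 and without replicate 3 or 4 of the CCR2 libraries.

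Cxcr4, which holds cells in the marrow, was at 5.67 ± 1.46 and 4.07 ± 0.922 CPM (adjusted p = 0.121). Ccr3, the eotaxin receptor of eosinophils, was at 0.136, 1.18, 0.0462 and 0.377 CPM against 0.177, 0.325, 0.387 and 0.602 CPM, with overlapping groups. Cxcr5, Cxcr6, Ccr7 and Ccr9 had group means under 1.5 CPM and were not called, Cxcr6 being called without replicate 3 of the libraries labelled CCR1 (log2 fold change −1.12, adjusted p = 0.0418).

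Chemokine ligand genes were lower for 11 of 19, against 16.8% of all genes, and higher for 0 (median log2 fold change −2.18). Ccl6 was at 33.9, 36.4, 21.5 and 25.3 CPM against 1133, 1226, 1323 and 1095 CPM and Ccl9 at 7.57 ± 2.23 against 629.7 ± 114 CPM; both are CC chemokines that bind CCR1 in the mouse. Ccl2, a ligand of CCR2, was at 0.525 ± 0.294 CPM against 15.4 ± 0.707 CPM. Of 22 cytokine receptor genes 11 were lower, against 16.8% of all genes. Higher were 3, Kit, Il18r1 and Il1r2, a share near the 14.4% of all genes. Receptors of the infused cytokines were unevenly placed: Csf2rb, the shared chain of the GM-CSF and IL-3 receptors, was at 214 ± 29.3 against 524 ± 30.2 CPM (log2 fold change −1.29), Csf2ra at 59.2 ± 7.38 and 49.7 ± 4.37 CPM (not called), and Il6ra at 9.77 ± 1.19 against 115 ± 21.6 CPM. Il10ra was at 1.33 ± 0.417 CPM against 147 ± 23.7 CPM.

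Gene lists of effector functions went in different directions. Of the 7 NADPH oxidase genes 3 were higher, against 14.4% of all genes, and 0 lower (median log2 fold change 0.75). In that list 1 was lower without replicate 4 of the libraries labelled CCR1. The membrane subunits Cybb (2865 ± 274 and 2399.5 ± 243 CPM) and Cyba (2887 ± 248 and 2718 ± 122 CPM) were not called, while Ncf1 (600.4 ± 28.2 against 131 ± 40.4 CPM), Rac2 (3728 ± 436 against 1607 ± 149 CPM) and the proton channel gene Hvcn1 (465 ± 64.5 against 10.4 ± 1.95 CPM, 44.2% of its exons overlapping Tctn1) were higher. Phagocytosis and scavenging genes were lower for 13 of 19, against 16.8% of all genes, and higher for 1 (median −4.15). The number higher was 0 without replicate 1 or 4 of the libraries labelled CCR1 or replicate 3 or 4 of the CCR2 libraries. It was 2 without replicate 3 of the libraries labelled CCR1. Msr1 was at 0.759 ± 0.464 against 211 ± 43.3 CPM and Cd68 at 22.1 ± 4.66 against 1188 ± 121 CPM. Of 15 complement genes 8 were lower, against 16.8% of all genes, including C3ar1, and 3 were higher (20%, against 14.4% of all genes). Among the higher was C5ar1, the C5a receptor of neutrophils and monocytes, at 212 ± 25.9 CPM against 31.9 ± 6.71 CPM.

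Of 23 adhesion genes 9 were lower, against 16.8% of all genes, and 4 higher, a share near the 14.4% of all genes. Ncam1 was at 596, 584, 707 and 719 CPM against 17.7, 11.9, 18.6 and 16.1 CPM (log2 fold change 5.34, adjusted p = 4.32e-14), and Itga6 at 30.3 ± 2.40 against 7.86 ± 2.40 CPM. Itgad was higher but low, at 0.364 to 0.678 CPM. The gene of the β2 integrin chain, Itgb2, was at 1699.8 ± 246 and 1908 ± 33.8 CPM (not called), whereas the adhesion genes Itgb7 (1.28 ± 0.502 against 123 ± 27.8 CPM) and F11r (1.37 ± 0.248 against 248 ± 25.7 CPM) were lower. Slpi, a protease inhibitor gene, was at 119.8 ± 12.7 and 178 ± 50.1 CPM and was not called (log2 fold change −0.56, adjusted p = 0.0133).

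Immediate early genes, which handling of cells can also induce, were lower for 14 of 18, against 16.8% of all genes, and higher for 1, Myc. Their median log2 fold change was −2.47, or −2.03 with genes lacking reads in 1 group at their bound. Under the replicate block 12 were lower, and without replicate 4 of the libraries labelled CCR1 3 were higher. Fos was at 10.6, 11.6, 8.46 and 7.21 CPM against 102, 141, 92.0 and 103 CPM, and Atf3 at 0.0339 ± 0.0678 against 17.0 ± 7.22 CPM. Of 8 heat shock genes 2 were higher (25%, against 14.4% of all genes), Dnajb1 (137 ± 26.7 against 37.0 ± 9.22 CPM) and Hsp90aa1 (245 ± 25.9 against 106 ± 30.9 CPM). In this list 0 were lower, or 1 without replicate 1 of the libraries labelled CCR1. The most abundant, Hspa8, was at 2125 ± 183 and 2513 ± 120.0 CPM (not called). Mitochondrially encoded genes took 0.455% to 0.535% of the reads in the libraries labelled CCR1 and 0.320% to 0.607% in the CCR2 libraries. The part of handling in these differences was not tested.

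Lists of other cells of the marrow differed widely in level. Of 6 tested eosinophil genes 4 were higher, against 14.4% of all genes, and 0 lower. Their summed level was 40.5 to 91.6 CPM in the libraries labelled CCR1 and 2.95 to 5.21 CPM in the CCR2 libraries. Prg2, the gene of major basic protein, was at 12.1, 52.1, 21.5 and 40.0 CPM against 1.11, 1.35, 1.26 and 0.344 CPM (log2 fold change 4.96, adjusted p = 7.54e-05), and Prg3 moved with it at 0.637, 2.89, 1.25 and 2.21 CPM. Epx, eosinophil peroxidase, was at 1.00, 9.04, 4.81 and 1.27 CPM; its call (log2 fold change 3.86, adjusted p = 0.0285) was lost without replicate 2 or 3 of the libraries labelled CCR1 and without replicate 1, 3 or 4 of the CCR2 libraries (adjusted p = 0.0570 to 0.0864). Their part in the granule signal was not tested; granule genes were at 17.7% to 20.2% of the reads in the same libraries.

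Of 8 basophil and mast cell genes 2 were higher (25%, against 14.4% of all genes) and 0 lower. Hdc, which encodes histidine decarboxylase and is transcribed in several myeloid cells, was at 719, 687, 784 and 688 CPM against 6.29, 9.11, 11.03 and 9.42 CPM (log2 fold change 6.33, adjusted p = 1.44e-14), and Ms4a2 at 7.24 ± 1.12 against 2.04 ± 0.868 CPM. The basophil protease gene Prss34 was present in both groups, at 269, 214, 99.4 and 159 CPM and at 94.1, 147, 157 and 226 CPM, as was Fcer1a at 4.98 ± 2.58 and 3.97 ± 0.724 CPM, and neither was called.

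The counts of the lymphoid, erythroid and platelet lists moved when 1 library was left out. For the lists named below, the shares over all genes were 14.4% higher and 16.8% lower. The share higher was below 14.4% in each of them except the plasma cell and plasmacytoid dendritic cell lists (30% and 20%). The share lower was 44.4% for T and NK cell, 33.3% for erythroid, 30% for plasma cell and 27.8% for B cell genes. It was 25% for stromal and endothelial genes, 18.2% for megakaryocyte genes, near the share of all genes, and 10% for plasmacytoid dendritic cell genes. Of 18 B cell genes 1 was higher and 5 lower, 2 of the latter without overlap. Without replicate 2 of the libraries labelled CCR1 these counts were 0 and 2, without replicate 3 of that group or replicate 2, 3 or 4 of the CCR2 libraries 3 were lower, and without replicate 1 of the libraries labelled CCR1 or replicate 4 of the CCR2 libraries 2 were higher. In level, the immunoglobulin heavy chain gene Ighm was at 538, 421, 739 and 676 CPM against 1223, 887, 1666 and 1444 CPM (log2 fold change −1.14, or −0.99 without replicate 2 of the libraries labelled CCR1 or replicate 3 of the CCR2 libraries), and 3 genes reached 10 CPM in the libraries labelled CCR1. Plasma cell genes were higher for 3 of 10, 1 of them without overlap, and lower for 3; under the replicate block 6 were higher, and without replicate 1 of the libraries labelled CCR1 5 were. Xbp1 was at 103 ± 8.65 against 267 ± 45.6 CPM. T and NK cell genes summed to 4.07 to 6.37 CPM against 10.1 to 16.3 CPM, 1 higher and 8 lower of 18, or 0 higher without replicate 2 or 3 of the libraries labelled CCR1 or replicate 2, 3 or 4 of the CCR2 libraries. Of 10 plasmacytoid dendritic cell genes 2 were higher and 1 lower, Tcf4 (13.5 ± 1.15 against 97.7 ± 8.06 CPM). Erythroid genes were higher for 1 of 15, Car2 (18.96 ± 3.37 against 1.06 ± 0.548 CPM), and lower for 5, none of the 5 without overlap. Of these, 3 were lower under DESeq2 and without replicate 2 or 4 of the libraries labelled CCR1, 2 without replicate 1 or 2 of the CCR2 libraries and 0 under filterByExpr. Megakaryocyte genes were higher for 1 of 11, Gp9 (2.55 ± 0.274 CPM with no read in the CCR2 libraries), and lower for 2, or for 1 without replicate 1 or 2 of the libraries labelled CCR1 or replicate 2 or 4 of the CCR2 libraries, while 2 were higher without replicate 1 of the CCR2 libraries. Of 8 stromal and endothelial genes 1 was higher, Col1a1 (1.44 ± 0.576 against 0.0672 ± 0.0580 CPM), and 2 lower.

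Outside the lists, the genes with the smallest p among those higher in the libraries labelled CCR1, after Nkg7, included Adgrg3 (563 ± 44.2 against 1.58 ± 0.295 CPM), an adhesion G protein-coupled receptor gene, Pglyrp1 (2784 ± 255 against 26.2 ± 1.99 CPM), a bactericidal peptidoglycan recognition protein gene of neutrophil granules, Cd63 (2093 ± 112 against 5.53 ± 1.29 CPM), a granule membrane gene, and the transcription factor gene Ets1 (259.8 ± 25.4 against 1.53 ± 0.113 CPM). Tuba8, Far2, Mogat2, Ica1, Tmem40 and Chit1 were among them too, with means of 135 to 495 CPM against 0.0698 to 1.41 CPM. Those with the largest log2 fold changes included Sdc2 (13.8 CPM on average, at least 405-fold), Mrgpra2a and the noncoding gene Panct2, all without a read in the CCR2 libraries, together with Gfi1, Erg, Chit1 and Prom1 (416 ± 37.2 against 0.185 ± 0.124 CPM). Hmgn2, which encodes a nucleosome-binding protein, was at 12543 ± 1158 CPM against 768 ± 173 CPM and stood among the 10 most abundant genes of the group; it was chosen after its values were seen.

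Among the lower genes the smallest p belonged to Mcub (2.59 ± 0.506 against 424 ± 28.5 CPM), a subunit gene of the mitochondrial calcium uniporter, F11r, Rnd3 (2.18 ± 0.294 against 180.8 ± 4.22 CPM) and Ctss. The C-type lectin genes Clec4a3 (1.08 ± 0.331 against 572 ± 63.8 CPM) and Clec4a1 (1.37 ± 0.429 against 545 ± 70.1 CPM) and the membrane-spanning genes Ms4a6b (12.7 ± 0.705 against 932 ± 131 CPM) and Ms4a4a (0.389 ± 0.165 against 286 ± 40.9 CPM) followed, with Galnt9, Plxnb2, Sirpb1c and Dse. The largest fold changes among lower genes were those of Spon1, the costimulatory receptor gene Cd40 (29.9 ± 8.18 CPM in the CCR2 libraries, at least 859-fold lower), Gprc5c and Rasgrp1, none of which had a read in the libraries labelled CCR1, and of Ciita, Sirpb1c, Slamf8 and Ms4a8a. Several of these genes belong to families of close copies, in which only reads that map to 1 place are counted. Actb, at 15126 ± 1251 and 27634 ± 2299.6 CPM, was below the fold cutoff (log2 fold change −0.86).

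The inflamed CCR1/2+ve monocytes, whose label shares CCR1 with these libraries, held 328 ± 34.95 CPM of Ngp, 493 ± 177 CPM of Elane, 145 ± 46.0 CPM of Mpo and 0.442 ± 0.00722 CPM of Kit (SD, n = 3). Their Ccr2, at 1240.5 ± 135 CPM, Csf1r, at 1080.3 ± 134 CPM, and Ctss, at 3225 ± 346 CPM, stood beside 1218 ± 181, 837 ± 112 and 3137 ± 455 CPM in resting CCR2+ve monocytes (SD, n = 4). Resting CCR1/2+ve monocytes held 633 ± 109, 407 ± 68.2 and 1724 ± 260 CPM of these genes (SD, n = 4). They held more Elane and Mpo than the inflamed CCR1/2+ve, at 1747 ± 608 and 1827 ± 865 CPM, and less Ngp, at 13.1 to 36.8 CPM. Granule lists took 2.17% to 3.38% of their reads. In a principal component analysis of all 19 libraries the first component (36.2% of the variance) placed the libraries labelled CCR1 at 95.1 to 110.0, the inflamed CCR1/2+ve at 42.6 to 59.7 and the inflamed CCR2+ve at 32.9 to 42.2. On the second component (25.0%) the libraries labelled CCR1 were at 87.6 to 99.8 and both other inflamed groups between −86.3 and −68.3. Resting CCR2+ve monocytes were at −101.1 to −96.7 on the first component and at −1.95 to 19.1 on the second. Resting CCR1/2+ve monocytes were at −82.3 to −78.2 and at 29.9 to 54.2. The first component thus set all inflamed groups apart from the resting ones. These groups were not tested against each other here.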

How the data were processed

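RNA of sorted bone marrow cells was measured by paired-end sequencing. Per the labels and methods, the authors assessed reads with fastp, aligned them to GRCm38 with STAR 2.7.10a and deposited a table of raw gene counts (uniquely mapped reads per Ensembl 91 gene); which strand column was taken is not given in the sources used here. Of the 20 columns of the table, 19 matched a sample by name and 1 was not used. Genes of chromosome 14 and some of chromosomes 15 to 19 were not analysed here.

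The 18652 of 50854 genes that averaged 1 read or more across 19 libraries were tested with edgeR 4.0.16 in R 4.3.3 (TMM factors, robust quasi-likelihood F test, the 8 libraries, Benjamini-Hochberg adjustment). In data simulated from the CCR2 means, 200 genes were changed and calls used the adjusted p alone, so the setting differs from the calls above. There edgeR recovered 38% of 2-fold and 63% of 4-fold changes, and 9.82% of its calls were false. For DESeq2 these were 43%, 63% and 13.1%. The share of false calls was above the nominal one in this 1 draw, which held 112 calls by edgeR and 122 by DESeq2. Many changes were missed there at either fold. Only 200 of 18652 genes were changed, against 31.3% called in the data, so these rates need not hold for the contrast above. DESeq2 1.42.0, other scalings, filters and cutoffs, and leaving out each library were tried as alternatives. Depth was 22502998 to 24293969 reads in the 8 libraries, and counting intervals (95%) and floors (3 reads over a group) cover counting error only. Positions, exon lengths and names came from GENCODE M21, and cell cycle lists from Seurat 5.3.0.

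Members, lists and tests were chosen with earlier results of these data known. The genes named are the chemokine receptors, the 12 genes with the smallest p and the 8 with the largest change in each direction among genes without overlap that reached 10 CPM, members of the lists, and genes the study names. Genes with predicted names were counted and passed over. Some named items are not reported here. Replicate numbers are shared by the groups in the labels: same-numbered libraries deviated from their group means together (r = 0.157 to 0.260 over 4 pairs, against −0.245 to 0.112 for 12 other pairs, across 7354 genes), so the blocked value is given where it changes the call of a named gene or moves a list's count by over 1.5 times.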

Additional observations from a re-analysis of the deposited data

Results flagged for a closer look

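For the genes named, each library was set against the other 3 of its group, and a gene was listed where the highest or lowest library lay far from the rest, by Dixon's 95% critical value for 4 values. This held for 25 of 368 pairs of a gene and a group (6.79%), and chance flags about 1 in 20 groups of normally distributed values. Where only 1 library of a group had reads, the flag follows from that alone, so these rates are not compared. This was so for Irf4 and Atf3 in the libraries labelled CCR1 and for Ccr10, Erg, Hlf and Itgad in the CCR2 libraries. None of these values was given a cause.

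In the libraries labelled CCR1 the library standing apart was, by gene, Lcn2 in replicate 4 (1770.0 CPM, nearest other 1327), Elane in replicate 4 (22051 CPM, nearest other 25505), Fpr1 in replicate 2 (0.136 CPM, nearest other 0.612), Flt3 in replicate 4 (0.471 CPM, nearest other 0.0462) and H2-DMb2 in replicate 4 (20.1 CPM, nearest other 16.3). Further such genes were Irf4 in replicate 4 (0.235 CPM, nearest other 0), Irf7 in replicate 1 (19.3 CPM, nearest other 27.3), Ifi204 in replicate 2 (2.85 CPM, nearest other 1.501), Itga6 in replicate 2 (26.7 CPM, nearest other 31.2), Atf3 in replicate 2 (0.136 CPM, nearest other 0) and Pcna in replicate 4 (294 CPM, nearest other 267).

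In the CCR2 libraries it was Ccr10 in replicate 3 (0.0484 CPM, nearest other 0), Camp in replicate 1 (27.3 CPM, nearest other 16.1), Kit in replicate 2 (0.465 CPM, nearest other 0.0443), Erg in replicate 4 (0.0430 CPM, nearest other 0), Hlf in replicate 1 (0.0886 CPM, nearest other 0), Cdk6 in replicate 4 (31.9 CPM, nearest other 23.9) and F13a1 in replicate 3 (7578 CPM, nearest other 8702). Further such genes were Ly6c2 in replicate 4 (1246 CPM, nearest other 2033), Spi1 in replicate 4 (40.5 CPM, nearest other 37.4), Clec10a in replicate 1 (71.7 CPM, nearest other 94.9), Epx in replicate 2 (0.976 CPM, nearest other 0.145), Itgad in replicate 2 (0.0465 CPM, nearest other 0), Atf3 in replicate 3 (27.8 CPM, nearest other 14.4) and Prom1 in replicate 4 (0 CPM, nearest other 0.232). Replicate 4, which stood apart on the second principal component, was the library in 5 of the 14.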

How the results depend on the processing

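The counts of genes called, 2695 higher and 3135 lower, moved by more than 1.5 times under the fold cutoff alone: they were 4241 and 4731 with no fold cutoff and 1479 and 2030 with a log2 cutoff of 2. Under DESeq2 they were 2685 and 2924, with 2627 and 2919 of the same genes, and leaving out 1 library gave 2563 to 2643 higher and 2950 to 3113 lower. With the replicate number as a block, which follows the pairing of the labels, 2635 and 2958 genes were called, 2564 and 2923 of them the same. Among the 190 genes named, the block changed the calls of Ccr6, Ccr1l1 and Cd34 and no other; among the lists it moved a count by over 1.5 times only for plasma cell genes (6 higher in place of 3). The direction of Ccr3 turned under the block (−0.21), and with 1 library left out its values ran from −0.97 (without replicate 2 of the libraries labelled CCR1) to 0.60, being −0.01 without replicate 1 of the CCR2 libraries. Likewise Ccr7 ran from −0.44 (without replicate 4 of the libraries labelled CCR1) to 0.96 and Fcer1a from −0.047 (without replicate 1) to 0.60, and none of these genes was called. Ccr6 and Ccr1l1 also lost their calls under DESeq2, Epx without a filter (adjusted p = 0.0607), and Ifit2 was called under DESeq2, filterByExpr and the fit of all 19 libraries; the cause was not tested. List medians moved by less than their spread under the other scalings. Of the 32 lists, 15 moved by more under filterByExpr, 5 without a filter, 4 under the block and 2 under DESeq2. With 1 library left out, 52 medians moved by more and 204 by less. Genes near 0 CPM are limited by depth, and replicates by what is not known of their origin.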
